A study of Mus musculus with 16 samples.

Results

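The type I interferon response is described here through 34 listed mouse genes, found by gene name in the array files with older and newer synonyms accepted. Of these, 33 had a probe that passed the filter on dim signal, among 20469 genes tested in the whole series. Xaf1 had no probe under its own name. Irf9, Dhx58 and Irgm1 stood in the files under other names (Isgf3g, D11Lgp2e and Irgm). The genes were listed as known members of this response, with earlier results of these samples known. The 33 genes had 54 probes, 17 genes having 1 probe and 16 several, and each gene was read from its brightest probe.

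Type I interferons are secreted proteins that bind the receptor IFNAR and activate the kinases JAK1 and TYK2. A complex that holds STAT2 and IRF9 then binds interferon-stimulated response elements in promoters. The genes switched on this way block virus entry, RNA translation and replication, and IRF7 among them raises the output of interferon itself. In B cells the same response can be set off by Toll-like receptors that sense nucleic acids, and a part of it, led by immunity-related GTPases and guanylate-binding proteins, is also switched on by interferon gamma.

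RNA came from follicular B cells of C.B17 mice, the main type of resting mature B cell, which lives in lymphoid follicles. The Auto.Neg group (n = 2) carried the anti-Thy-1 receptor transgenes VH3609µ and Vk21-5κ on a Thy-1 knockout background, so that the antigen was missing. The Auto.Pos group (n = 2) carried a receptor against intestinal goblet cells, VH3609µ with Vk19-17κ (another label field writes Vkappa17-17kappa). The third group, WT (n = 2), was labelled wild type. The Non-edited and Edited samples (n = 1 each) were labelled VH3609t +/- x Vk21-5Tg +/- with the Thy-1 knockout. Age, sex and the number of mice pooled per sample were not given in the sources used here, and nothing in the labels ties the samples of a group to separate mice, so each p-value covers only the spread among these samples.

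Each sample was hybridised on 2 dual-colour Agilent arrays in opposite dye orientations, with RNA pooled from 6 cell lines as the common reference, which makes 16 arrays for 8 samples. Levels are log2 ratios of sample over reference, averaged over the pair of arrays, and differences are between such levels. A level of one gene cannot be set against that of another, because each is relative to the reference pool. On each array 62.0% to 81.9% of probes were marked by the scanner software as well above background in the channel of the sample. Thy1 had 2 probes. The brighter read -4.54 to -3.73 in all 8 samples. The other read -1.43 to 0.46 in the 4 samples labelled knockout and -3.77 to -2.93 in the other 4, and the deleted part of the gene is not given in the sources used here. All 7 B cell markers and 4 of 4 follicular markers measured were above background on both arrays of every sample.

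There were 7 slides, scanned on 4 days under 2 scanner protocols. Only slide 2 held samples of different replicated groups, Auto.Neg sample 2 and Auto.Pos sample 1. The deposited series table attributes its columns otherwise than the scanner files. Its columns labelled WT sample 2 match the scanner files of Auto.Neg sample 1, and those labelled WT sample 1 match the files of WT sample 2. These are the samples that stand out below, so the group names of both rest on the attribution of the scanner files, which was used throughout.

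The motif bound by the STAT2 and IRF9 complex is shown first, since it is the sequence through which these genes are known to respond. RefSeq promoter windows of assembly GRCm38.p6, each from 250 bases before to 50 bases after a gene's start, were matched by symbol for 26 of the 34 genes. The core, GAAA, any 2 bases and GAAA again, searched on either strand, was present in 15 of 26 genes (57.7%) against 3.99% of 27025 genes with a window. The longer form, the core followed by C, was present in 12 of 26 genes (46.2%) against 0.944% of all genes. The genes were listed for belonging to this response, so the motif share describes the list and is not a result of the samples. The stretches before the start that hold the core follow, for a part of the genes whose levels are described below. They are written 5′ to 3′ along the gene's own strand with the core in capitals. Where cores overlap, the capitals run on, and paired TTTC runs are the core read from the opposite strand.
Isg15 (chr4:156200860-156200911, minus strand): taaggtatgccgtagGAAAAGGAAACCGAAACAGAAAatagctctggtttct
Oas1a (chr5:120907526-120907560, minus strand): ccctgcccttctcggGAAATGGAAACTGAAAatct
Ifit1 (chr19:34640770-34640828, plus strand): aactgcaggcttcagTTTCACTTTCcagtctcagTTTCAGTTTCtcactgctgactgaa
Bst2 (chr8:71537572-71537617, minus strand): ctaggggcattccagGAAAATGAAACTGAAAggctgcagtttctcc
Irgm1 (chr11:48871421-48871465, minus strand): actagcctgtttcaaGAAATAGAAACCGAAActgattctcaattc
Igtp (chr11:58199507-58199546, plus strand): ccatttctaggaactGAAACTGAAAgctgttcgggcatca
Gbp2 (chr3:142620589-142620628, plus strand): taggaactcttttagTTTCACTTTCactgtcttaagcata
Rsad2 (chr12:26456548-26456587, minus strand): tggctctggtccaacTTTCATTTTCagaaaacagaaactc
Stat2 (chr10:128270261-128270300, plus strand): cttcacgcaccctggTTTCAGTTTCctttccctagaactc
Isg15, Bst2, Irgm1 and Oas1a hold overlapping cores in one run, while Ifit1 holds separate ones. The core lay after the start in Ddx58, Eif2ak2 and Ifih1, and these are not shown. Ifit3, Oas3 and Cxcl10 also held the core before the start and are not shown either. A match describes letters in a window and not a bound site.

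Across the samples, 2 stood above the rest, Auto.Neg sample 1 and WT sample 2, while their partners in the same groups were the lowest. The median level of the 33 genes was 1.90 in Auto.Neg sample 1 and 0.84 in Auto.Neg sample 2. It was 0.86 in WT sample 1 and 1.78 in WT sample 2. The Auto.Pos samples read 1.07 and 1.17, Non-edited 1.22 and Edited 1.28, between these extremes. WT sample 2 held the highest of the 8 levels for 17 of 33 genes, against 12.8% of all genes, and Auto.Neg sample 1 for 12, against 8.12%. WT sample 1 was highest for 3 (Stat2, Ddx58 and Dhx58), against 11.7%, and Auto.Neg sample 2 for 1 (Samhd1), against 18.4%. The lowest level fell to Auto.Neg sample 2 for 11 genes, against 8.58%, and to WT sample 1 for 8, against 15.4%. The other 4 samples were highest for 0 genes, against 23.4% and 9.61% of all genes in the Auto.Pos samples, 7.11% in Non-edited and 8.87% in Edited. In bulk RNA, a change in the share of cells that carry a transcript and a change in RNA per cell cannot be told apart.

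**Figure D1:**
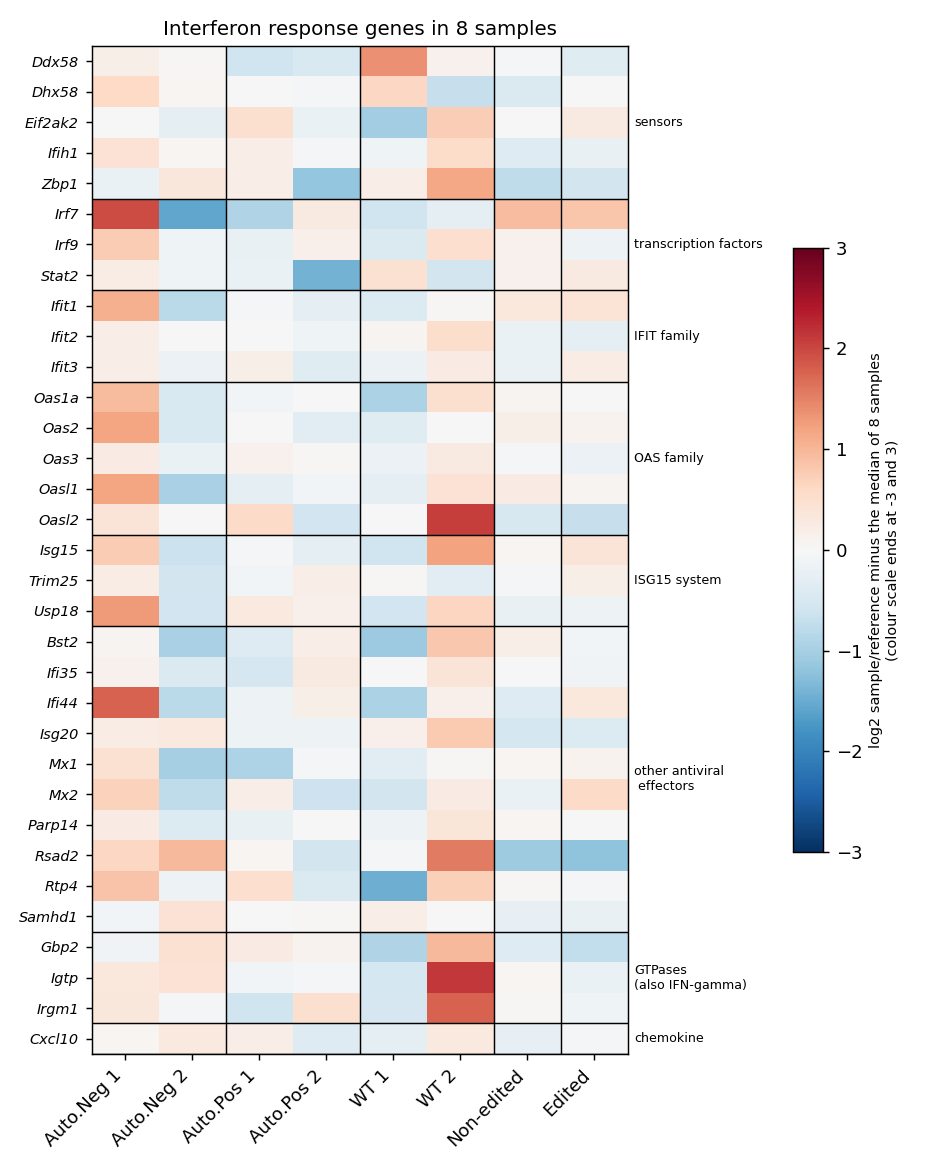
Deviation of each of the 33 genes from its own median over the 8 samples, in log2 units, with genes in rows by role and samples in columns. Red cells gather in Auto.Neg sample 1, where 30 genes lie above their median, and in WT sample 2, where 29 do, and their partners Auto.Neg sample 2 and WT sample 1 have 11 and 9.

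In Auto.Neg sample 1 the leading gene was Irf7, the transcription factor that amplifies interferon production, read by a probe at chr7:137682028-137682378 (mm7, the build named in the files). Irf7 read 3.99 and 0.49 in the Auto.Neg samples, 1.14 and 2.30 in those of Auto.Pos, 1.44 and 1.78 in those of WT, then 2.96 in Non-edited cells and 2.87 in Edited cells. Auto.Neg sample 1 was the highest and Auto.Neg sample 2 the lowest of all, a gap of 3.50 or 11.3-fold, which was 3.43 with the sample in Cy5 and 3.57 in Cy3. That gap spans different scan days and scanner protocols. Within scan day 4, Auto.Neg sample 1 lay above Non-edited by 1.03 and above Edited by 1.12. Auto.Pos sample 2 lay above both WT samples, and the WT samples lay close together, although the arrays of WT sample 2 themselves read 2.47 and 1.09.

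Ifi44, a cytoplasmic protein strongly induced by interferon (chr3:151631285-151631344), was also highest in Auto.Neg sample 1. It read 3.01 and 0.42 in the Auto.Neg samples, 1.07 and 1.41 in those of Auto.Pos, 0.28 and 1.39 in those of WT, then 0.85 in Non-edited cells and 1.55 in Edited cells. Its second probe read 2.73 and 0.38 in Auto.Neg and 1.68 or less elsewhere, so both probes placed Auto.Neg sample 1 highest. Oasl1, a 2'-5'-oligoadenylate synthetase-like protein known to restrain Irf7 translation (chr5:114158380-114158439), read 2.17 and 0.01 in the Auto.Neg samples, 0.69 and 0.90 in those of Auto.Pos, 0.68 and 1.41 in those of WT, then 1.22 in Non-edited cells and 1.05 in Edited cells. Its gap inside Auto.Neg was 2.15, or 4.45-fold, and every other sample lay inside it.

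Usp18, the protease that removes ISG15 from proteins and dampens IFNAR signalling (chr6:121295796-121295855), read 3.02 and 1.16 in the Auto.Neg samples, 2.03 and 1.90 in those of Auto.Pos, 1.17 and 2.39 in those of WT, then 1.52 in Non-edited cells and 1.58 in Edited cells. Ifit1, which binds viral RNA caps (chr19:34350610-34350669), read 2.94 and 1.05 in the Auto.Neg samples, 1.84 and 1.60 in those of Auto.Pos, 1.45 and 1.89 in those of WT, then 2.19 in Non-edited cells and 2.27 in Edited cells. For both, Auto.Neg sample 1 was the highest and Auto.Neg sample 2 the lowest sample. In all, 10 of 33 genes were at least 2-fold higher in Auto.Neg sample 1 than in sample 2 in both dye orientations, against 4.27% of all genes, and 0 were lower, against 5.21%. The remaining 5 of these were Oas1a, Isg15, Mx2, Mx1 and Oas2, with gaps of 1.39 to 1.66. Mx1 was above background on only 7 of 16 arrays, so its value is the least certain of them.

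In WT sample 2 the widest gaps to its partner were in Igtp and Irgm1, GTPases that interferon gamma also induces. Igtp, an immunity-related GTPase (chr11:58288970-58289029), read 0.78 and 3.42 in the WT samples, 1.62 and 1.75 in those of Auto.Neg, 1.22 and 1.24 in those of Auto.Pos, then 1.38 in Non-edited cells and 1.12 in Edited cells. WT sample 2 stood 2.64 or 6.24-fold above WT sample 1, which was the lowest of the 8, and the other 6 samples lay between 1.12 and 1.75. Irgm1, a regulator of such GTPases (chr11:48822320-48822379), read 1.05 and 3.32 in the WT samples, 1.90 and 1.51 in those of Auto.Neg, 0.95 and 2.04 in those of Auto.Pos, then 1.59 in Non-edited cells and 1.43 in Edited cells. Its next brightest probe read 0.98 and 3.29 in WT, the same gap. Next came Rtp4, a chaperone of membrane receptors, which read 1.44 and 3.63 in the WT samples and 3.76 and 2.75 in those of Auto.Neg, so that Auto.Neg sample 1 was the highest. Bst2, the protein tetherin that holds budding viruses at the cell surface, read -2.54 and -0.65 in the WT samples, the lowest and the highest of the 8. Gbp2, a guanylate-binding protein (chr3:142530694-142530753), read 4.22 and 6.08 in the WT samples, 5.02 and 5.57 in those of Auto.Neg, 5.36 and 5.21 in those of Auto.Pos, then 4.73 in Non-edited cells and 4.37 in Edited cells.

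Oasl2, a second oligoadenylate synthetase-like gene (chr5:114132992-114133051), read -0.53 and 1.53 in the WT samples, -0.16 and -0.57 in those of Auto.Neg, 0.03 and -1.13 in those of Auto.Pos, then -1.04 in Non-edited cells and -1.23 in Edited cells. Rsad2, the antiviral enzyme viperin (chr12:24278814-24278873), read 0.86 and 2.50 in the WT samples, 1.54 and 1.90 in those of Auto.Neg, 1.00 and 0.37 in those of Auto.Pos, then -0.13 in Non-edited cells and -0.27 in Edited cells. Its dimmer probes did not show that gap at the same size, with -0.43 and -0.17 in WT on one and -0.30 and 0.05 on the other. At 2-fold in both dye orientations, WT sample 2 exceeded WT sample 1 for 10 of 33 genes, against 2.91% of all genes. They were Igtp, Irgm1, Rtp4, Oasl2, Bst2, Gbp2, Isg15, Eif2ak2, Rsad2 and Oas1a, with gaps of 1.43 to 2.64. In the reverse direction there was 1 gene, the RNA sensor regulator Dhx58 (1.90 and 0.59), against 4.09%.

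**Figure D2:**
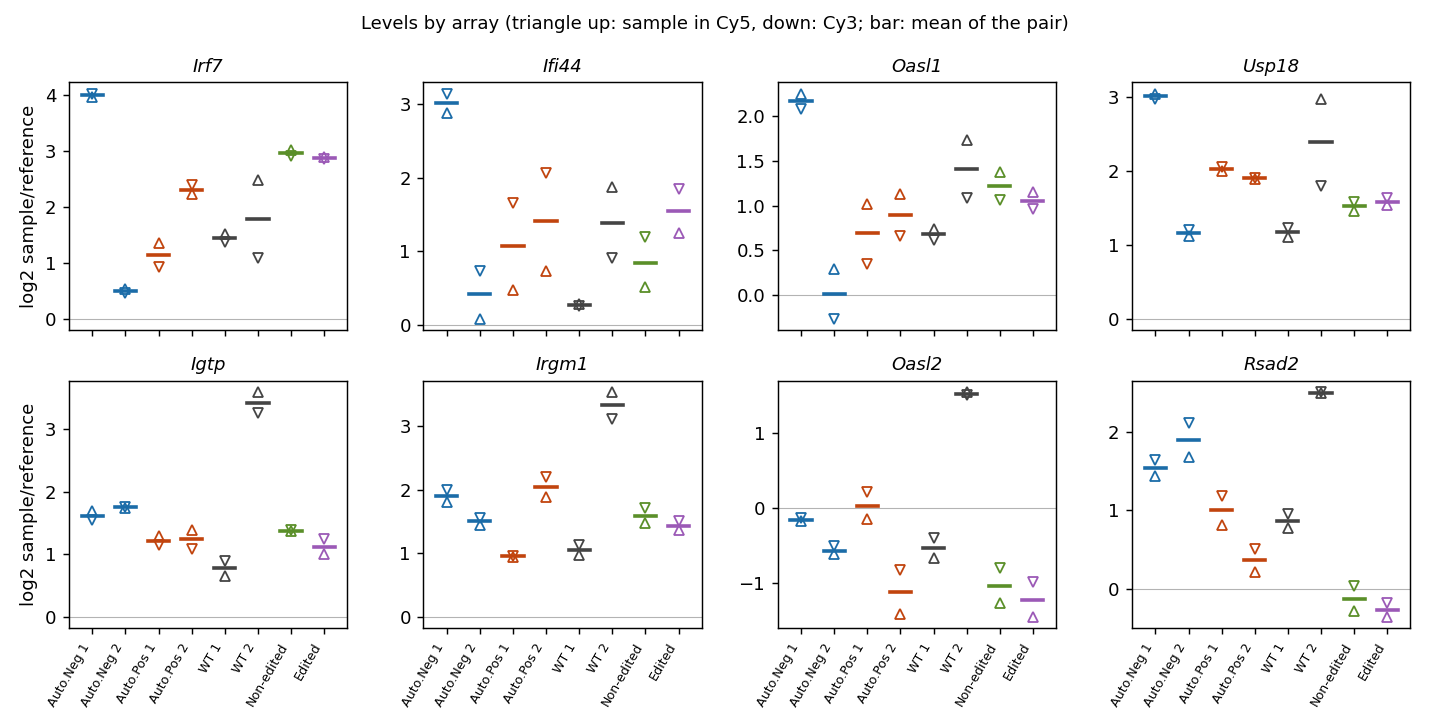
Log2 ratio of sample over reference on every array for 8 genes, with a triangle for each dye orientation and a bar at the mean of each sample. Irf7, Ifi44, Oasl1 and Usp18 peak in Auto.Neg sample 1, at 3.99, 3.01, 2.17 and 3.02, and Igtp, Irgm1, Oasl2 and Rsad2 peak in WT sample 2, at 3.42, 3.32, 1.53 and 2.50.

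The 10 genes of each sample had 2 in common (20% of each), Isg15 and Oas1a. Isg15, the ubiquitin-like modifier, read 2.16 and 0.74 in the Auto.Neg samples, 1.34 and 1.12 in those of Auto.Pos, 0.80 and 2.59 in those of WT, then 1.44 in Non-edited cells and 1.77 in Edited cells. The files place its only probe on chromosome 17 while RefSeq places the gene on chromosome 4, the only such disagreement among the 33 genes, and whether the probe also reads a related copy was not tested. Oas1a, an oligoadenylate synthetase with near-identical neighbours, read 2.03 and 0.63 in the Auto.Neg samples, 0.99 and 1.07 in those of Auto.Pos, 0.13 and 1.56 in those of WT, then 1.17 in Non-edited cells and 1.09 in Edited cells. By contrast Igtp and Gbp2 differed by -0.13 and -0.55 inside Auto.Neg, and Irf7 by only 0.35 between WT sample 2 and sample 1. Of the 12 genes highest in Auto.Neg sample 1, 7 had a promoter window, and the core motif was present in 2 of these. Of the 17 highest in WT sample 2, 15 had a window and 11 of these held the core. The genes without a window were not read. These shares rest on few genes and carry no test.

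**Figure D3:**
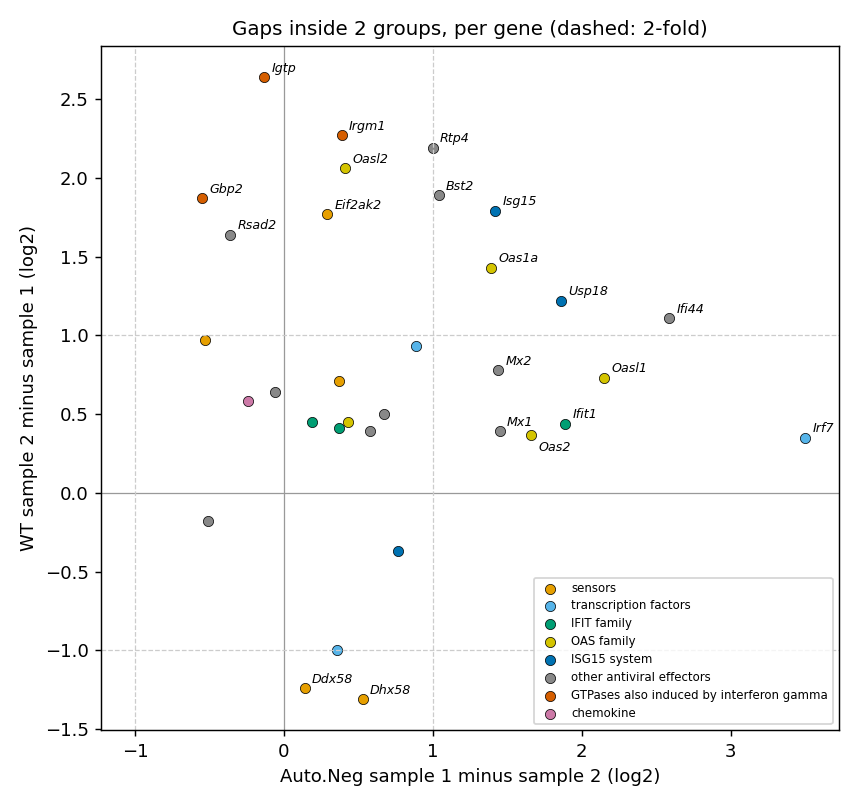
Gap between the samples of Auto.Neg (horizontal, sample 1 minus 2) against that of WT (vertical, sample 2 minus 1), in log2 units, 1 point per gene coloured by role, with dashed lines at 2-fold. Irf7 lies far right and low (3.50 and 0.35), Igtp at the top near 0 on the horizontal axis (2.64 and -0.13), and Isg15 and Oas1a are past 2-fold on both.

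Over the whole list, 26 of 33 genes were higher in Auto.Neg sample 1 than in sample 2, against 37.3% of all genes, with a median of 0.53 against -0.14 over all genes. In WT, 5 were higher and 28 lower in sample 1 than in sample 2, where 52.3% of all genes were higher, with a median of -0.71 against 0.02. The WT gap had a median of -0.96 with the samples in Cy5 and -0.54 in Cy3. The Cy3 array of WT sample 2 was brighter than all others, with a median signal of 734.7 in Cy3 and 1039 in Cy5 against at most 225.7 and 286.8 elsewhere, so the value from Cy5 is the one without it. In Auto.Pos, 18 were higher in sample 1, against 62.3%, and 15 lower, with a median of 0.08 against 0.13. With median centring of arrays in place of loess, the split inside Auto.Pos was 11 higher and 22 lower (median -0.40), and with scale normalization 16 and 17 (median -0.03). The median gap inside Auto.Neg was 1.09 with median centring and 0.87 with scale normalization, and that inside WT -0.66 and -1.34. Inside Auto.Pos, 3 genes were at least 2-fold higher in sample 1 in both dye orientations (Oasl2, Stat2 and Zbp1), against 5.64%, and 0 lower, against 3.9%.

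By role, the oligoadenylate synthetases were above their own 8-sample medians for 5 of 5 genes in both Auto.Neg sample 1 and WT sample 2, with median deviations of 0.95 and 0.43. The transcription factors (Stat2, Irf7 and Irf9) were above for 3 of 3 in Auto.Neg sample 1 and for 1 of 3 in WT sample 2, with median deviations of 0.75 and -0.26. They were also above for 3 of 3 in Non-edited (0.14) and for 2 of 3 in Edited (0.26) and Auto.Pos sample 2 (0.16). The gamma-induced GTPases deviated by a median of 1.77 in WT sample 2 and 0.31 in Auto.Neg sample 1. The IFIT genes deviated by 0.24 and 0.21 in the same samples, and by 0.22 in Edited. Ifit2 and Ifit3 spanned 0.81 and 0.60 over all 8 samples on their brightest probes. A second Ifit2 probe of nearly the same brightness, above background on all 16 arrays, read 0.71 and -0.92 in the Auto.Neg samples and -0.85 and 0.02 in those of WT, a wider spread. In the ISG15 system, Trim25, a ligase that acts on RIG-I, read 1.33 and 0.56 in the Auto.Neg samples on its brightest probe. These were the highest and the lowest of the 8, with Auto.Pos sample 2 close to the top at 1.32, and the WT samples read 1.16 and 0.79. The second Trim25 probe, above background on all 16 arrays, did not show this order. It read -1.09 and -1.26 in Auto.Neg, with the top in Auto.Pos sample 1 (-0.69) and the bottom in Edited (-1.64). Oas3 ran from 0.28 to 0.74 and Ifi35, an interferon-induced leucine zipper protein, from 1.10 to 1.99, both with the top in WT sample 2. The sensors of RNA and DNA were above their medians for 4 of 5 genes in both Auto.Neg sample 1 and WT sample 2 (median deviations 0.18 and 0.56), and also for 4 of 5 in Auto.Neg sample 2 and Auto.Pos sample 1 (0.05 and 0.20). Inside WT they went both ways. Eif2ak2, the kinase PKR, read -1.80 and -0.02, while Ddx58, the sensor RIG-I, read 3.38 and 2.14. That order of Ddx58 was seen on the brightest probe, and the next brightest probes read 1.12 and 1.26, and 1.54 and 1.09. Cxcl10, the list's chemokine, spanned 0.67 and was above background on 8 of 16 arrays.

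Scanner protocol 1 covered Auto.Neg sample 2, Auto.Pos sample 1 and WT sample 1, and protocol 2 the other 5 samples, so the gaps inside groups run along it. The sample under protocol 2 was higher in all 3 replicated groups for 10 of 33 genes, against 16.6% of all genes, and lower in all 3 for 0, against 31.9%. All 5 samples of protocol 2 lay above all 3 of protocol 1 for 6 genes, namely Mx1, Oas1a, Oasl1, Irf7, Bst2 and Parp14, against 8.52%, and below for 0, against 16.6%. Inside scan day 4, where all samples shared protocol 2, Auto.Neg sample 1 was higher than Non-edited for 32 of 33 genes, against 49% of all genes (median 0.58, 0 over all genes), and higher than Edited for 30, against 51.7% (median 0.50, 0.01 over all genes). The genes at least 2-fold higher in both orientations were 3 against Non-edited (Ifi44, Rsad2 and Usp18; 0.617% of all genes). They were 6 against Edited (Rsad2, Ifi44, Usp18, Irf7, Oasl1 and Oas2; 0.68%), and 0 were that much lower than either (0.409% and 1.48% of all genes). Inside scan day 3, also protocol 2, Auto.Pos sample 2 lay above WT sample 2 for 5 genes, against 50.1%, and below it for 28, and 6 were at least 2-fold lower in both orientations (Oasl2, Zbp1, Igtp, Rsad2, Isg15 and Rtp4), against 1.68%, with 0 higher, against 2.71%. Both samples thus lay above the samples of their own scan day for most of these genes. For WT sample 2 that was Auto.Pos sample 2 alone. The median of Auto.Pos sample 2 minus WT sample 2 was -0.94 in Cy5 and -0.35 in Cy3. The Cy3 value holds the bright array of WT sample 2. Each high sample lay alone on its slide, so slide and sample cannot be told apart.

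The remaining pathway genes were counted from lists written alongside the members. Of 45 further interferon-induced genes tested (of 51 listed), WT sample 2 was highest for 22, against 12.8% of all genes. In WT sample 1, 37 were lower than in sample 2, where 52.3% of all genes were higher. The median was -0.53, against 0.02 over all genes. The largest gaps there were in Ly6a, a surface protein of lymphocytes (0.75 and 6.17), Iigp1 (0.32 and 5.40) and Tgtp1 (3.43 and 6.86), both immunity-related GTPases. Auto.Neg sample 1 was highest for 7 of the 45, against 8.12% of all genes, with Tap1, a peptide transporter of antigen presentation, 2.94 above sample 2. Tap1 differed more inside Auto.Pos, by -3.69 for sample 1 minus sample 2. Among 21 signal transduction genes, 18 lay above their median in Auto.Neg sample 1, 18 in Non-edited and 6 in WT sample 2. The share of all genes above their median is not given here. The median deviation over all genes was -0.03, -0.02 and -0.01 in these samples. Tlr7, the endosomal RNA sensor, differed by 2.22 and Ifnar1, a chain of the interferon receptor, by 1.60 inside Auto.Neg. Ifnar1 differed by -1.73 inside Auto.Pos, where the sample of protocol 2 was again the higher. Inside WT it went the other way, at 1.81 in sample 1 (protocol 1) and 1.15 in sample 2 (protocol 2). The 7 ligand and receptor genes tested were above their median for 3 genes in each of both samples.

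Markers of other cells were read for the same samples. The summed level of 5 neutrophil markers, in log2 over each array's median, was 6.28 and 4.11 in the Auto.Neg samples, 5.50 and 5.05 in those of Auto.Pos, 5.19 and 6.38 in those of WT, then 4.72 in Non-edited cells and 3.98 in Edited cells. It was highest in the same samples as the interferon genes, with all 5 markers above background on both arrays there and 4 of 5 in their partners. Auto.Pos sample 1 and Non-edited also had all 5. The part of these markers in the result was not tested. The macrophage and monocyte sum was 5.07 and 5.57 in Auto.Neg, but 6.21 and 6.93 in WT, within 4.30 to 6.93 over all samples, so it was highest in WT sample 2 but lower in Auto.Neg sample 1 than in its partner. The plasmacytoid dendritic cell sum ran from 5.79 to 6.77, with 5.98 in Auto.Neg sample 1 and 6.22 in WT sample 2. Siglech, a defining marker of these cells, was above background on 2 of 16 arrays. The T cell sum was 3.40 and 2.89 in the Auto.Neg samples, 3.11 and 3.61 in those of Auto.Pos and 2.32 and 3.27 in those of WT, so it too was higher in both interferon-high samples than in their partners, although Auto.Pos sample 2 was at the top, and its part in the result was not tested. The sums were 1.32 to 2.64 for conventional dendritic cells and 1.06 to 3.59 for NK cells, with neither of the high samples at the top.

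Auto.Pos and Auto.Neg differ in the light chain transgene and with it in what the receptor binds. They also differ in the Thy-1 knockout label and in whether the receptor's antigen is present. Contact with self antigen cannot be told apart from the other differences in this comparison. limma called 0 of 33 genes at an adjusted p under 0.05 (Benjamini-Hochberg over all genes), against 0.0147% of all genes, and 0 had an unadjusted p under 0.05, against 1.04%. The genes were lower in Auto.Pos for 28 of 33, against 46.6% of all genes, with a median of -0.22 against 0.02. The groups did not overlap for 7 genes, all lower, against 8.17%, and for 0 higher, against 11.1%. These 7 were Rsad2 (difference -1.03, SE 0.588), Stat2 (-0.85, SE 0.531), Ddx58, Igtp, Isg20, Dhx58 and Ifit2 (-0.63 to -0.20), each with a limma adjusted p of 1.

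The lower median of the list in Auto.Pos rested on Auto.Neg sample 1. Without it, 21 genes were higher and 12 lower, with a median of 0.18, and without Auto.Neg sample 2 the median was -0.41. On slide 2, which held 1 sample of each group, 19 genes were higher in Auto.Pos and 14 lower, with a median of 0.20 against 0.01 over all genes, and 0 were 2-fold apart in both orientations (0.464% of all genes higher, 0.362% lower). The 7 genes without overlap are lower on slide 2 by construction, with differences of -0.90 for Rsad2, -0.64 for Ddx58, -0.53 for Igtp, -0.44 for Isg20 and -0.07 to -0.04 for Stat2, Dhx58 and Ifit2. On the second probes of Isg20 and Ifit2 the groups overlapped. For Isg20 that probe read -1.03 and -0.25 in the Auto.Pos samples, with 0.07 and -0.78 in those of Auto.Neg. Ddx58 was separated only by its brightest probe. Its second probe, above background on all 16 arrays, ran from 0.52 to 1.79 over the Auto.Neg samples. The Auto.Pos samples lay inside that range, at 0.55 and 1.57. Its dimmer probes overlapped too, whereas those of Rsad2 kept both Auto.Pos samples below Auto.Neg. Stat2, a partner of IRF9, read 2.80 and 2.44 in Auto.Neg against 2.37 and 1.17 in Auto.Pos, so most of its difference came from Auto.Pos sample 2.

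Auto.Pos against WT asks how the transgenic, antigen-exposed cells differ from a normal repertoire. limma called 0 of 33 genes, against 0% of all genes, with a lowest adjusted p of 0.804, and 1 had an unadjusted p under 0.05, against 5.63%. That was Ddx58, at 1.43 and 1.57 in Auto.Pos against 3.38 and 2.14 in WT (difference -1.26, SE 0.430). The next brightest probes did not separate the groups in this way, with 0.55 and 1.57, and 0.57 and 2.18, in Auto.Pos. Genes without overlap were 3, all lower (Ddx58, Ifit2 and Isg20), against 10.4%, and 0 higher, against 19.2%. Isg20, an exonuclease of viral RNA, read -0.13 and -0.12 in the Auto.Pos samples, below the 0.17 and 0.81 of WT (difference -0.61, limma adjusted p 0.918). Its second probe, above background on all 16 arrays, read -0.51 and 0.58 in the WT samples and overlapped with Auto.Pos, as did the second probe of Ifit2. In total 21 genes were lower, against 39.9% of all genes, and 12 higher, with a median of -0.10 against 0.06. The split was 30 lower and 3 higher with median centring of arrays in place of loess, and 28 and 5 with scale normalization. Without WT sample 2 the median was 0.21 and 22 genes were higher, without WT sample 1 it was -0.52 and 2 were.

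In Auto.Neg against WT, limma called 0 of 33 genes, against 0%, with 0 at an unadjusted p under 0.05, against 4.6%. No gene separated the groups, against 15.4% higher and 9.57% lower over all genes. The genes split into 18 higher and 15 lower, against 42.4% of all genes lower, with a median of 0.03 against 0.04. With median centring the split was 14 and 19, with scale normalization 11 and 22. The largest differences were Ifi44 at 0.88 (SE 0.906) and Oasl2 at -0.86 (SE 0.771), each smaller than or near its error. The median was -0.34 without Auto.Neg sample 1, 0.22 without Auto.Neg sample 2, -0.31 without WT sample 1 and 0.46 without WT sample 2.

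**Figure D4:**
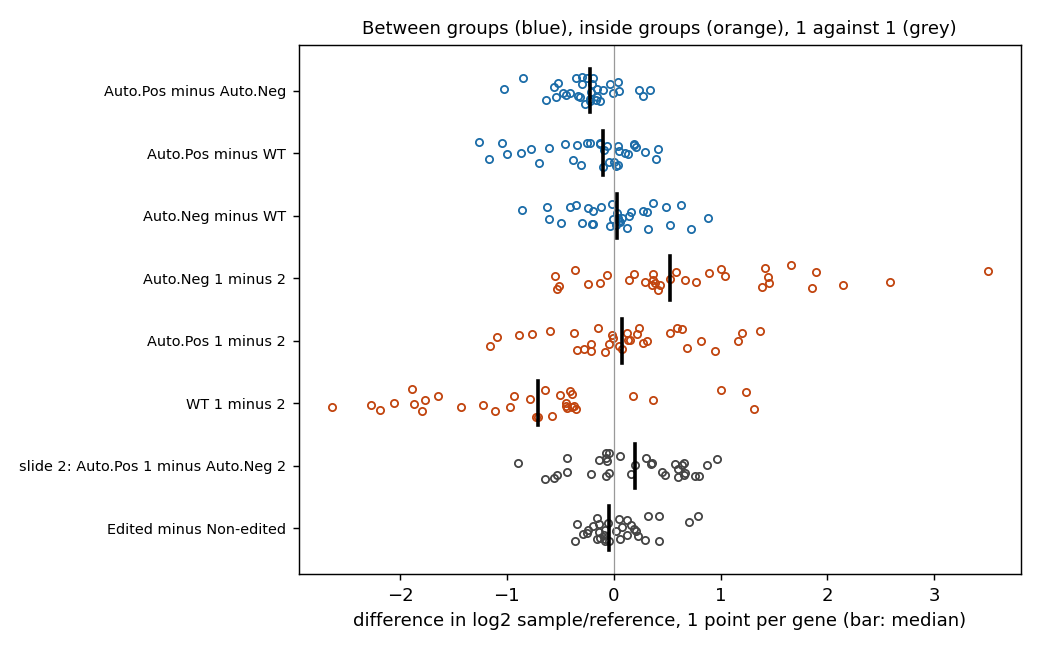
Difference in log2 ratio for each of the 33 genes, 1 point per gene with a bar at the median, between groups (blue), between the samples of a group (orange) and between single samples on a slide or of single groups (grey). The group differences centre at -0.22, -0.10 and 0.03, whereas the gaps inside Auto.Neg and WT centre at 0.53 and -0.71.

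For 32 of the 33 genes (97%) the largest gap between samples of a group exceeded the largest difference between group means, against 81.9% of all genes. The exception was Ddx58, at 1.26 between group means and 1.24 inside WT. The median share of a gene's spread that lay between the 3 replicated groups was 13.6%, against 25.8% over all genes.

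A receptor is called edited when new gene rearrangement has exchanged one of its chains. The Edited and Non-edited cells had 1 sample each and allow no test. Of the interferon genes 16 were higher in Edited, against 44.9% of all genes, and 17 lower, with a median difference of -0.04 against -0.03 over all genes, and 0 were 2-fold apart in both dye orientations, against 1.22% of all genes higher and 0.172% lower. The largest differences were Mx2, at -0.72 in Edited and -1.51 in Non-edited, and Ifi44, at 1.55 and 0.85. With median centring 26 genes were higher and 7 lower, with a median of 0.22 against 0.10 over all genes. On the brightest probe both samples lay low for Rsad2, at -0.27 and -0.13 below the 0.37 to 2.50 of the other 6. The second Rsad2 probe read -1.45 in Edited and -1.32 in Non-edited, with Auto.Pos sample 2 also at -1.32. The dimmest read -0.20 and -0.13, inside the range of the other samples. For Irf7 both samples lay high, at 2.87 and 2.96 second only to Auto.Neg sample 1. All of these samples were scanned on day 4, and the part of scan day in this order was not tested.

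None of the further pathway genes was called by limma in a comparison of replicated groups. That holds for 7 ligand and receptor genes, 21 signal transduction genes, 5 feedback genes and 45 further interferon-induced genes. Between Auto.Pos and Auto.Neg the further induced genes were lower for 30 of 45, against 46.6% of all genes, with a median of -0.11 against 0.02. Over all of these lists the lowest values were Ly6a (-2.28, SE 1.79), the feedback gene Socs1, an inhibitor of the receptor kinases (-1.32, SE 0.635), and Lgals3bp (-0.96, SE 0.644). Against WT, Auto.Pos was lower for 34 of 45, against 39.9% of all genes (median -0.23, 0.06 over all genes), with Iigp1 at -2.17 (SE 1.63). Iigp1 read 0.19 and 1.18 in the Auto.Pos samples against 0.32 and 5.40 in those of WT, so its difference came from WT sample 2. That sample was the highest of all for 22 of the 45 genes, and the count without it is not given here.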

How the data were processed

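Per the labels' protocols, total RNA was amplified and labelled with Cy3 or Cy5. Per the file headers, the scanner files hold spot intensity and local background in each channel, from Agilent Feature Extraction 9.1.1.1, 9.1.3.1 and 9.5.1.1, and a log10 ratio of red over green that the software dye-normalized. The deposited series table holds a log2 ratio per array, for which the submitters' processing notes name limma, with no version. Only 6 of its 16 columns correlated most with the array of the same label, so the scanner files were used, and the table, as labelled and rematched by correlation, served as an alternative.

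R 4.3.3 and limma 3.58.1 were used. Background was corrected by normexp (offset 50) and loess was run within arrays, giving control spots a weight of 0, and outlier spots were dropped. Probes well above background in the sample channel on both arrays of at least 2 samples were kept (29640 of 41174), the brightest probe stood for its gene, and dye-swap arrays were averaged, with 358 values over all genes resting on 1 array. 1 mean was fitted per group to 8 samples, with 3 residual and 2.11 prior degrees of freedom. Probe positions are those of the files (mm7). The number of arrays limits the precision.

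Members and gene lists were chosen with earlier results of these data known, and all members are named. Other pathway genes named are those called and at most the 3 highest and lowest of a comparison. The values of 1 further gene that this rule would name are not reported here. The fit was tested on simulated data. Sample numbers did not pair the samples across groups (correlations of deviations -0.788, -0.279 and 0.252). Alternatives covered background correction, normalization, filters, probe choice, source of the values, blocks and left-out samples. Exact exons of the probes were not analysed here. Columns belonging to no sample numbered 0.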

Additional observations from a re-analysis of the deposited data

How the results depend on the processing

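Read from the scanner files, 0 of 33 interferon genes were called by limma in each of the 3 comparisons of replicated groups under all alternatives that allow a test. With the replicate block the medians were -0.22 (Auto.Pos minus Auto.Neg), -0.10 (Auto.Pos minus WT) and 0.03 (Auto.Neg minus WT), with 0 called. The crossed replicate block and the scanner protocol block gave the same medians and 0 called. Each level of these blocks held 1 sample of every replicated group, so the group differences were bound to stay the same. Only their errors could change. Leaving out 1 sample in turn, the medians ran from -0.41 to 0.18, from -0.52 to 0.21 and from -0.34 to 0.46 in that order, with 0 called.

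The gap inside Auto.Neg (0.53) was 0.70 with the scanner software's log ratio, 1.09 with median centring, 0.87 with scale normalization and 0.67 in the rematched series table. Median centring gave -0.40 inside Auto.Pos and 0.22 for Edited minus Non-edited, and moved the median of all genes inside Auto.Neg from -0.14 to 0.12. Scale normalization gave -1.34 inside WT. Auto.Neg sample 1 and WT sample 2 together held the highest level of 26 to 30 genes under the settings of the scanner files and of the rematched table. Genes 2-fold apart between Edited and Non-edited were 3 with the scanner software's log ratio and 1 in the rematched table. With scan day as a block, which leaves no test, Auto.Neg minus WT had a median of -0.78.

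In the deposited series table read by its labels, limma called 16 genes in Auto.Pos minus Auto.Neg (median 1.05, 0.13 over all genes). It called 22 in Auto.Neg minus WT (median -2.01, -0.09 over all genes). The share of all genes called there is not given here, so these counts cannot be read as particular to the list. The median of Auto.Pos minus WT was -0.95, against 0.02 over all genes. The gaps were -0.30 inside Auto.Neg, -0.18 inside Auto.Pos and 0.11 inside WT, and 1 gene was 2-fold apart between Edited and Non-edited. In that table, columns labelled as one sample match different scanner files, some with the opposite sign. Slide as a random block could not be fitted, and the mean of all kept probes gave no count for Edited against Non-edited. Signal near background limits Mx1, Cxcl10, Ifit2 and Oasl2, which were above background on 7, 8, 14 and 14 of 16 arrays.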
